A study of Mus musculus with 11 samples.

Results

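The receptors for the colony-stimulating factors were followed in tissue-resident macrophages (macs) of mice with and without ZEB2, a zinc-finger transcription factor that binds E-box sequences. The group was a list of 7 named genes out of 27998 in the count tables: the receptor genes Csf1r, Csf2ra, Csf2rb, Csf2rb2, Csf3r and Flt3, and the ligand gene Csf1. All 7 were present in the tables and had at least 1 UMI (unique molecular identifier, a tag that marks 1 captured mRNA) in each of the 11 libraries. Of them, 6 reached 20 CPM (a gene's UMIs per 1000000 UMIs counted in its library) in at least 1 library, and 3 did so in every library. Flt3 stayed under that floor throughout.

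The libraries were 10x Genomics 3′ single-cell libraries of sorted macs from 5 tissues: brain (microglia), liver (Kupffer cells, KCs), lung (alveolar macs, AMs), spleen (splenic macs, SMs) and colon (colonic macs, CMs). For each tissue there was 1 WT library from Zeb2fl/fl mice and 1 Zeb2KO library, and the liver had another WT library from Nr1h3fl/fl mice. All Zeb2 groups shared the floxed Zeb2 allele, the controls carried no CRE, and the mice were young adult littermates of both sexes on a C57Bl/6 background, with no age in the labels and no number of animals per library given. The labels named Fcgr1-cre, active in macs that express CD64, for every Zeb2KO library, whereas the study's methods named Clec4f-cre for the liver and Itgax-cre for the lung, so the groups are called Zeb2KO here. According to the study, Fcgr1-cre also acts in some B cells, T cells and conventional dendritic cells, Itgax-cre in other CD11c-expressing cells and Clec4f-cre in a few B cells, and part of the sorted macs outside the brain kept a copy of Zeb2. The sorts required CD64 and F4/80 in all tissues, with Clec4F for KCs, CD11c and SiglecF for AMs, intermediate CD45 for microglia, and exclusion of Ly6G, Ly6C and SiglecF for CMs and SMs. The study identified CMs and SMs without Zeb2 in part by higher Siglecf. Whether this exclusion removed such cells was not tested.

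The libraries held 51712 barcodes, of which 45180 were kept as macs after a cell filter and removal of clusters of other cell types, with 2830 to 6974 macs per library. Among them stayed clusters led by genes of smooth muscle (39 cells in WT and 30 in Zeb2KO CMs), endothelial cells (163 and 73 in KCs, 74 in Nr1h3fl/fl) and B cells (207 and 142 in SMs). Library totals were lowest in WT SMs, at 11133411 UMIs, and highest in WT CMs, at 47400786. KCs and AMs were sequenced on another instrument than microglia, CMs and SMs, so the instrument differed between tissues but not within a tissue. Pairs of libraries shared 14 to 76 barcode sequences, at most 1.45% of the smaller library. The markers of microglia, KCs, AMs and splenic red pulp macs were each highest in their own tissue in WT libraries, with 24433, 15973, 11561 and 24785 summed CPM, and no list specific to CMs was available. Zeb2 was higher in each Zeb2KO library than in its WT library, at 475 against 1747 CPM in microglia, 376 against 478 in CMs, 387 against 778 in KCs, 312 against 480.5 in AMs and 730.4 against 889 in SMs. The floxed allele still makes an mRNA with its 3′ end, so 3′ counting does not check the deletion. The 2 WT liver libraries fell mostly into different clusters, and the members' comparisons in KCs are therefore given beside the values of both.

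Macs depend on signals through a small set of cytokine receptors. CSF1R, a receptor tyrosine kinase for CSF1 and IL-34, keeps most tissue macs alive, while GM-CSF, which signals through a ligand-binding alpha chain and a shared beta chain, is needed for AMs to mature in the lung alveoli. G-CSF and its receptor drive the production and release of neutrophils, and FLT3 with its ligand acts on progenitors and on dendritic cells. In the brain IL-34 made by neurons is a main source of signal for CSF1R, and Csf1 is itself raised in microglia in several states of injury or disease.

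Csf3r and Csf1 were higher in Zeb2KO in all 5 tissues, so the DNA before their starts is shown beside the values that follow. The bases are from RefSeq promoter entries (build GRCm38.p6), which existed for 5 of the 7 genes, and lie outside the annotated gene (GENCODE M21). Capitals in the shorter windows mark a match to a motif, and the windows come from inside the gene, close to its RefSeq start.
Csf1, 250 bases upstream, chr3:107760470-107760719, reverse strand: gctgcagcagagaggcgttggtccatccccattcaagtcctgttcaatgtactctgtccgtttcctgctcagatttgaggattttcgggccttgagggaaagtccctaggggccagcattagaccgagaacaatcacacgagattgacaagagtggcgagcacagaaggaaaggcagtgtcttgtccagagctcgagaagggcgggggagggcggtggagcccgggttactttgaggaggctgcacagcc
Csf3r, 141 bases upstream, chr4:126024409-126024549, forward strand: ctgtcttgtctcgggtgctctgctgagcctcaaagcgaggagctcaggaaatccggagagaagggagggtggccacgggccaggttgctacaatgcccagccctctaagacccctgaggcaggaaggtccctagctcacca
Csf3r, ZEB core window, chr4:126024633-126024657, forward strand: gaagccaggaAGGTGtcgcaattct
Csf3r, PU.1 window, chr4:126024563-126024588, forward strand: tccttcctgaGAGGAAggggctgtct
Within 250 bases before the RefSeq start, on either strand, the ZEB core CACCT, which reads AGGTG on the other strand, was found in 46.0% of 32851 mouse promoters, the longer CACCTG, which contains it, in 17.2%, and GAGGAA, a core bound by the mac factor PU.1, in 23.3%. Csf3r held 1 CACCT, 16 bases before the start, and 1 GAGGAA, 86 bases before it. Csf2rb2 held 2 CACCT and 1 GAGGAA, Csf2ra held 2 GAGGAA, and none of these letters was found for Csf1 and Flt3. The longer CACCTG was in none of the 5 windows. The matches describe these windows only.

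Csf1r, the receptor for CSF1 and IL-34 (chr18:61100598-61132149, forward strand, build GRCm38 here and for the genes that follow), was lower in Zeb2KO than in WT in every tissue. It stood at 3202 CPM in WT and 1931 in Zeb2KO microglia, 969.6 and 816 in CMs, 1685 and 1264 in KCs, 69.4 and 36.5 in AMs, and 1757 and 1136 in SMs, and at 1918 in Nr1h3fl/fl WT KCs. The WT level was thus 1.66 times the Zeb2KO level in microglia, 1.19 times in CMs, 1.33 times in KCs, 1.90 times in AMs and 1.55 times in SMs. No tissue reached 2-fold. The exact Poisson 95% intervals of WT and Zeb2KO did not overlap in any tissue, but neither did those of the 2 WT liver libraries (1668 to 1701 CPM in Zeb2fl/fl and 1898 to 1938 in Nr1h3fl/fl). How many of all genes do so was not counted. These intervals cover counting error only, and each tissue had 1 library per genotype with no replicate. In such sums over a library, fewer cells that express a gene and less mRNA per cell cannot be told apart. The WT liver libraries differed from each other by 0.19 on the log2 scale for Csf1r, and Zeb2KO was below each of them, by 0.41 against Zeb2fl/fl and by 0.60 against Nr1h3fl/fl. The 3′ end of Csf1r overlaps Hmgxb3 on the opposite strand, and whether the counting used strand is not given in the sources used here.

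**Figure D1:**
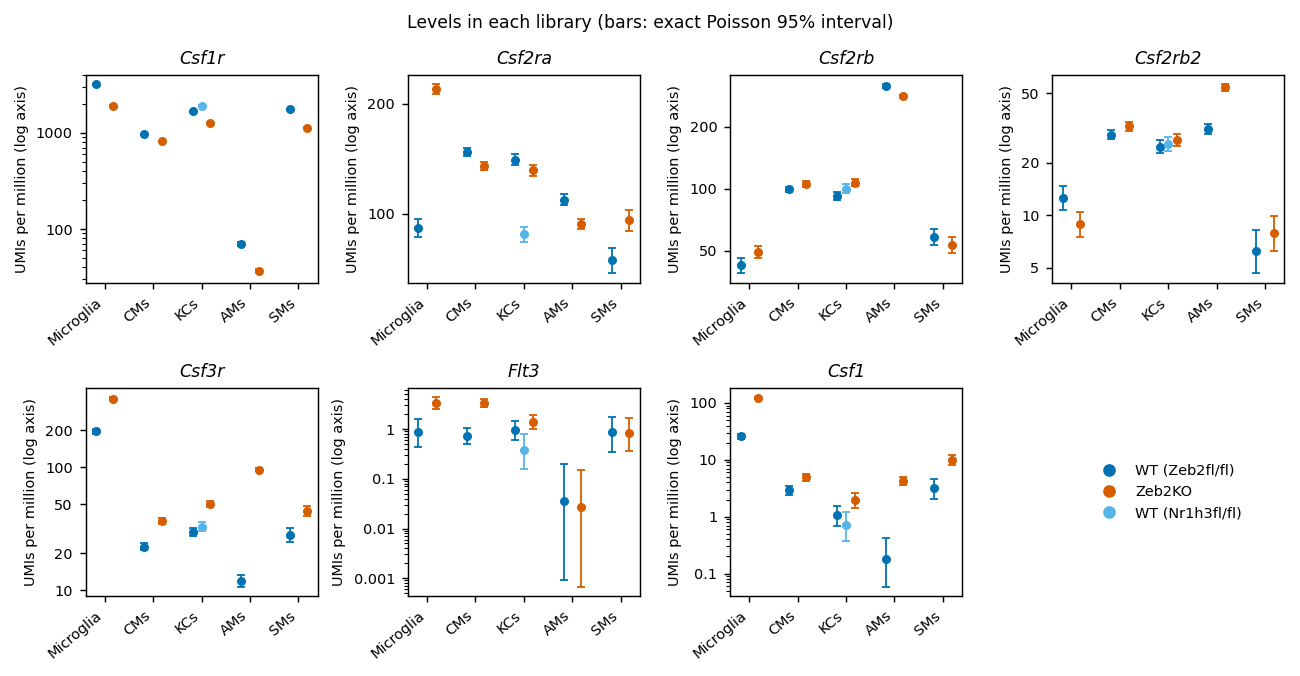
Level of each of the 7 genes (CPM, log axes) in the 11 libraries by tissue, with blue points for WT Zeb2fl/fl, orange for Zeb2KO and light blue for WT Nr1h3fl/fl, and bars for exact Poisson 95% intervals. Csf1r is lower and Csf3r and Csf1 are higher in Zeb2KO in all 5 tissues, and Csf2rb stands highest in AMs, at 315 CPM in WT and 280.3 in Zeb2KO.

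The order of the tissues in WT macs placed AMs apart from the others for Csf1r. Microglia stood highest, followed by SMs, KCs, CMs and AMs, and only SMs and KCs differed by less than the 2 WT liver libraries did. Between AMs and CMs, the next tissue, the step was 3.78 on the log2 scale. In the cells, thinned to 1500 UMIs each so that depth was equal, 98.7% of WT microglia but 10.3% of WT AMs had a Csf1r UMI. The share was lower in Zeb2KO in each tissue, at 93.8% in microglia, 67.7% against 74.4% in CMs, 82.9% against 90.0% in KCs (92.9% in Nr1h3fl/fl), 5.39% in AMs and 78.6% against 90.6% in SMs. In droplets free RNA also gives UMIs, and B cells, which should lack the gene, had a Csf1r UMI in 29.1% of cells in WT spleen and 52.4% in WT liver after thinning, from median depths of 2076 and 3452 UMIs against 2219.5 in SMs and 5368 in KCs. The order of the genotypes was the same in these B cells, with 17.0% in Zeb2KO spleen and 47.4% in Zeb2KO liver. Whether free RNA or macs in the same droplet gave these UMIs was not tested.

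**Figure D2:**
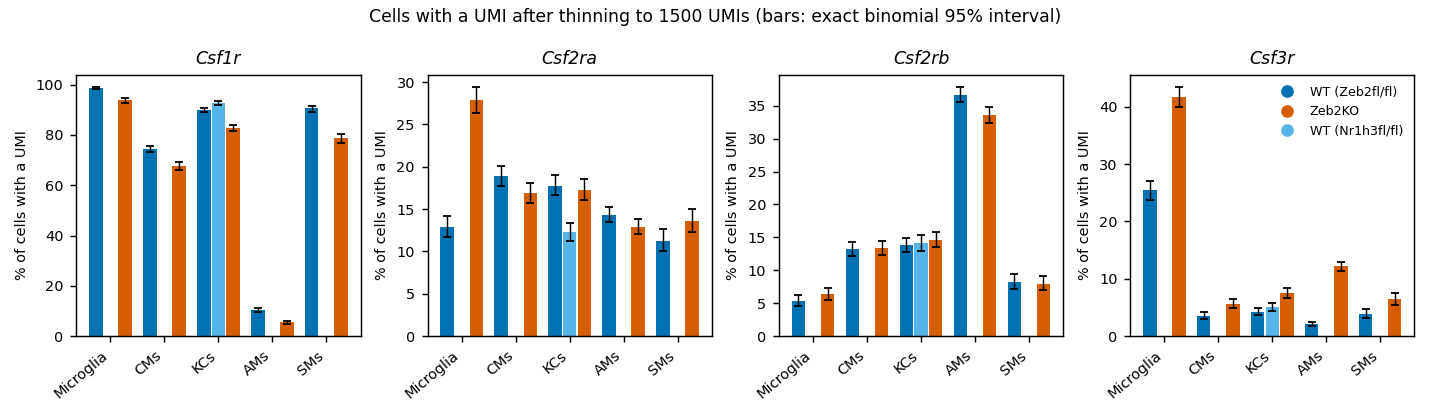
Percent of macs with at least 1 UMI of Csf1r, Csf2ra, Csf2rb and Csf3r after each cell was thinned to 1500 UMIs, by tissue, with blue bars for WT Zeb2fl/fl, orange for Zeb2KO, light blue for WT Nr1h3fl/fl, and exact binomial 95% intervals. Csf3r goes from 25.4% to 41.7% in microglia and from 2.07% to 12.1% in AMs, and Csf2rb is highest in AMs.

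Csf2ra encodes the alpha chain that binds GM-CSF (chr19:61223957-61228429, reverse strand) and differed most between the genotypes in microglia. It stood at 91.5 CPM in WT and 219 in Zeb2KO microglia, at 148 and 135 in CMs, 141 and 132 in KCs, 109 and 93.9 in AMs, and 74.7 and 96.1 in SMs. The Zeb2KO level was 2.39 times the WT level in microglia (95% interval 2.24 to 2.56, counting error only), and in the other tissues it lay between 0.858 and 1.29 times. The thinned share of microglia with a Csf2ra UMI was 12.9% in WT and 27.8% in Zeb2KO. Nr1h3fl/fl WT KCs stood at 87.9 CPM, so the WT liver libraries differed 1.60-fold from each other, a larger step than between the genotypes in any tissue but the brain. The direction in KCs depended on the control, at -0.10 on the log2 scale against Zeb2fl/fl and 0.58 against Nr1h3fl/fl. With so large a difference between WT livers, none of the neighbours in the WT order CMs, KCs, AMs, microglia and SMs was separated.

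Csf2rb, the common beta chain that GM-CSF shares with IL-3 and IL-5 (chr15:78325752-78353847, forward strand), was highest in AMs in both genotypes. WT levels were 315 CPM in AMs, 99.2 in CMs, 92.2 in KCs, 58.5 in SMs and 42.5 in microglia, and Zeb2KO levels in the same order were 280.3, 105, 107, 53.4 and 49.3, with 100.2 in Nr1h3fl/fl WT KCs. WT AMs were 3.17-fold over the next tissue, and only CMs and KCs were not separated. The log2 ratios of Zeb2KO to WT ran from -0.17 in AMs to 0.21 in microglia and KCs (0.09 against Nr1h3fl/fl), and the 0.09 of CMs turned to -0.32 without 1 colon cluster described with the clusters apart from WT. Counted per cell, the same data had a Csf2rb UMI in 36.7% of WT and 33.6% of Zeb2KO AMs after thinning. The other WT tissues had 5.34% to 13.8% and Nr1h3fl/fl KCs 14.1%. Cells left out of the macs had such UMIs too, for example in 0.963% of WT spleen B cells and 9.17% of WT liver endothelial cells. The AM direction was within the shift of the whole library: the median log2 ratio of all genes at the floor was -0.31 in AMs. With totals scaled by the trimmed mean of M values (TMM) Csf2rb went to 0.10 and Csf2ra, -0.22 on unscaled totals, to 0.05. On those totals Csf1r in AMs went from -0.91 to -0.64. In the other 4 tissues that median lay between -0.09 and 0.05.

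Csf2rb2, a mouse gene next to Csf2rb on chromosome 15 (chr15:78282507-78305721, reverse strand) that encodes the beta chain specific to IL-3, was also highest in AMs, followed by CMs and KCs. It stood at 31.2 CPM in WT and 54.2 in Zeb2KO AMs, at 29.0 and 32.4 in CMs, 24.8 and 27.1 in KCs (25.6 in Nr1h3fl/fl), 12.6 and 8.92 in microglia, and 6.26 and 7.90 in SMs. The AM ratio was 1.74-fold (95% interval 1.61 to 1.89), which is 0.78 on the log2 scale and 1.05 with TMM-scaled totals, where it passed 2-fold. WT AMs and CMs differed 1.07-fold. The longest coding transcripts of Csf2rb and Csf2rb2 had 345 words of 98 bases in common, 7.18% and 7.43% of all, but 0 of the 403 in the last 500 bases, the part that a 3′ assay reads. Summed over both genes, AMs had 346 CPM in WT and 334.5 in Zeb2KO, and WT AMs were 2.70-fold over the next tissue.

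Csf3r, the receptor for G-CSF and a gene typical of neutrophils (chr4:126024550-126044440, forward strand), was higher in Zeb2KO in every tissue and most of all in AMs. In AMs it stood at 12.02 CPM in WT and 96.0 in Zeb2KO, 7.98-fold (7.13 to 8.96). In microglia it stood at 196 and 362 CPM, 1.85-fold (1.76 to 1.94). In CMs it stood at 22.7 and 36.9, in KCs at 30.08 and 50.04, and in SMs at 28.5 and 44.3, which was 1.63-fold, 1.66-fold and 1.56-fold. WT AMs were the lowest of all WT tissues and Zeb2KO AMs were higher than every other mac library except the microglia. In CMs the log2 ratio was 0.68, and 0.14 without the same colon cluster. The Nr1h3fl/fl WT KCs stood at 33.0, so both WT livers lay below the Zeb2KO library, and they differed from each other by 0.13 on the log2 scale against 0.72 and 0.58 for Zeb2KO. Microglia were 6.50-fold over the next WT tissue, and KCs and SMs were not separated. After thinning, 2.07% of WT and 12.1% of Zeb2KO AMs had a Csf3r UMI (4.56% and 38.1% unthinned), as had 25.4% and 41.7% of microglia (54.1% and 81.5% unthinned). The corresponding shares were 3.54% and 5.64% in CMs, 4.22% and 7.47% in KCs and 3.87% and 6.39% in SMs. Among cells left out of the macs, the thinned share with a Csf3r UMI differed by type. It was below that of the macs in B cells and fibroblasts, with a UMI in 0.385% of WT and 0.576% of Zeb2KO spleen B cells, 0.699% and 2.96% of liver B cells, and 0 of 135 and 0 of 128 colon fibroblasts, which allows shares of up to 2.70% and 2.84% (exact binomial upper bounds). Other types came close to the macs of their library, with 3.62% of WT and 5.33% of Zeb2KO spleen erythroid cells, 2.75% and 5.54% of liver endothelial cells and 2.74% of WT spleen T cells. In others there was none, with 0 of 36 WT and 0 of 39 Zeb2KO spleen dendritic cells, 0 of 38 Zeb2KO spleen T cells, and 0 of 33 and 0 of 24 hepatocytes of the WT and Zeb2KO liver libraries, which allow shares of up to 9.74%, 9.03%, 9.25%, 10.6% and 14.2% (exact binomial upper bounds). Of the 131 hepatocytes in the Nr1h3fl/fl library 2.29% had a Csf3r UMI. Left-out cells also carried Csf1r, at 1188 CPM in WT spleen erythroid cells against 1757 in SMs. In the WT liver it was 1124 in endothelial cells, 1543 in hepatocytes and 998 in B cells, against 1685 in KCs. Others had less, for example 262 in WT spleen B cells and 220 in WT colon fibroblasts. Whether mac mRNA or free RNA adds to the Csf3r shares of left-out cells, or free RNA to those of SMs and KCs, was not tested. Unthinned, 7.41% and 3.91% of these fibroblasts had a Csf3r UMI, against 19.2% and 25.1% of CMs, at median depths of 8645 and 7275.5 UMIs in fibroblasts and 9208 and 8538 in CMs.

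Markers of neutrophils moved with Csf3r in part, and their part in its values was not tested. The summed level of 7 markers of mature neutrophils was 1.54 CPM in WT and 108 in Zeb2KO microglia, 56.4 and 128 in CMs, 21.6 and 59.8 in KCs, 24.9 and 248 in AMs, and 3.802 and 26.2 in SMs. Most of the Zeb2KO sums in microglia and AMs came from Cxcr2, a chemokine receptor of neutrophils, at 96.2 CPM and 178 CPM, and in CMs and KCs from Il1r2, a decoy receptor for IL-1, at 84.2 and 38.1 CPM. In microglia Retnlg, Mmp9 and Stfa2l1 were at 0 in both genotypes, with Mmp8 also at 0 in Zeb2KO and Il1r2 in WT. In AMs Mmp9 was at 0 in both, with Retnlg and Stfa2l1 also at 0 in WT. The 6 granule genes of neutrophils summed to 0.0811 CPM in WT and 0 in Zeb2KO microglia, 0.670 and 1.78 in CMs, 11.3 and 6.88 in KCs, 0.182 and 3.65 in AMs, and 59.6 and 36.8 in SMs. They were thus higher in Zeb2KO in CMs and AMs, where Elane, Camp and Ngp were at 0, and lower in SMs, while the microglial values are too few to give a direction. In KCs the direction depended on the control, with 1.04 CPM in Nr1h3fl/fl. The CM and SM sorts excluded Ly6G, a neutrophil surface marker.

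Flt3, the receptor for FLT3 ligand (chr5:147330741-147400489, reverse strand), was low in macs, at 3.37 CPM or less in every library. It had 11 UMIs in WT and 57 in Zeb2KO microglia (0.892 and 3.37 CPM), 32 and 121 in CMs (0.740 and 3.32), 23 and 36 in KCs (0.948 and 1.41, with 0.383 in Nr1h3fl/fl), 7 and 8 in SMs (0.859 and 0.832) and 1 in each AM library. The ratios were 3.78-fold in microglia (1.96 to 7.99) and 4.48-fold in CMs (3.01 to 6.84), and in KCs the interval of 1.49-fold ran from 0.856 to 2.62. Without the same colon cluster the log2 ratio in CMs was 0.26, against 1.31 with it. Dendritic cells left out of the spleen libraries, where Flt3 is a known marker, had 97.2 CPM in WT and 155 in Zeb2KO. A list of 7 dendritic cell markers summed to 19.1 and 67.9 CPM in WT and Zeb2KO microglia, 41.2 and 53.8 in CMs, 61.6 and 88.2 in KCs, 102 and 78.5 in AMs, and 153 and 213 in SMs, with Wdfy4 leading in each. At 0 were Cd209a, Ccr7 and Ccr9 in WT microglia and Clec9a and Cd209a in Zeb2KO microglia. The part of this list in the Flt3 values was not tested. In the liver Flt3 lay mainly in a small cluster present in both genotypes and led by Alox15, Prg4, Slpi, Saa3 and Fn1, which held 22 of the 23 UMIs of WT and 25 of the 36 of Zeb2KO KCs, with 21.03 CPM in the WT and 26.9 in the Zeb2KO library, where Csf1r was 548 and 558.

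Csf1, the ligand of CSF1R (chr3:107741048-107760469, reverse strand), was higher in Zeb2KO in every tissue, and only microglia passed the floor. Microglia had 25.9 CPM in WT and 120.3 in Zeb2KO, 4.65-fold (4.13 to 5.25). SMs had 3.19 and 9.88 CPM, 3.10-fold (1.99 to 4.98). AMs had 5 UMIs in WT and 161 in Zeb2KO, or 0.182 and 4.32 CPM, 23.7-fold with an interval from 9.95 to 74.0. The gene was present in few AMs in either case, with a UMI in 0.0717% of WT and 1.98% of Zeb2KO AMs unthinned. In CMs it stood at 2.94 and 4.91 CPM (1.67-fold, 1.32 to 2.11) and in KCs at 1.07 and 1.95 CPM (1.82-fold, 1.11 to 3.05), with 0.711 in Nr1h3fl/fl. WT microglia were 8.11-fold over the next tissue, SMs, and 4.26-fold over CMs, then the next, when cells of other types were not left out. Cells left out of the macs had Csf1 too: colon fibroblasts had 108.8 CPM in WT and 96.0 in Zeb2KO, and liver endothelial cells 17.2 and 27.2 CPM. Those endothelial cells also had Csf1r, at 1124 and 918 CPM, and whether they hold mac mRNA was not tested. Spleen T cells had Csf1 at 33.4 and 74.4 CPM, from 7 and 9 UMIs in 2 cells of each library. After thinning, 17.8% and 19.5% of these fibroblasts had a Csf1 UMI, against 0.502% and 0.747% of CMs. A list of 5 monocyte markers summed to 6.40 and 38.6 CPM in WT and Zeb2KO microglia, 166 and 187 in CMs, 594 and 491 in KCs, 8.09 and 76.2 in AMs, and 73.6 and 223 in SMs, and its part in the Csf1 values was not tested.

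By a rule of at least 2-fold (1 on the log2 scale of CPM + 1) with at least 20 CPM in the higher library, 24 of the 35 pairs of a gene and a tissue could be called and 3 were: Csf2ra and Csf1 in microglia and Csf3r in AMs, all higher in Zeb2KO. In microglia 2 of the genes were therefore called higher, while the rule called 4.27% of all 5922 genes at the floor higher and 4.07% lower. In AMs 1 gene was called higher, beside 4.35% of 5812 genes higher and 7.33% lower. None was called in CMs, KCs or SMs, where the rule called 1.09% higher and 0.486% lower, 3.38% and 1.15%, and 2.28% and 0.858%. Between the WT liver libraries none of the 7 passed the rule, which called 0.486% of genes higher and 0.865% lower in Nr1h3fl/fl, and none passed between Zeb2KO and Nr1h3fl/fl KCs, where it called 4.17% and 3.88%. With 1 library per group these counts have no test. In WT macs, 3 of the 7 genes were at least 2-fold over every other tissue, Csf2rb in AMs and Csf3r and Csf1 in microglia, as were 23.6% of 7700 genes.

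**Figure D3:**
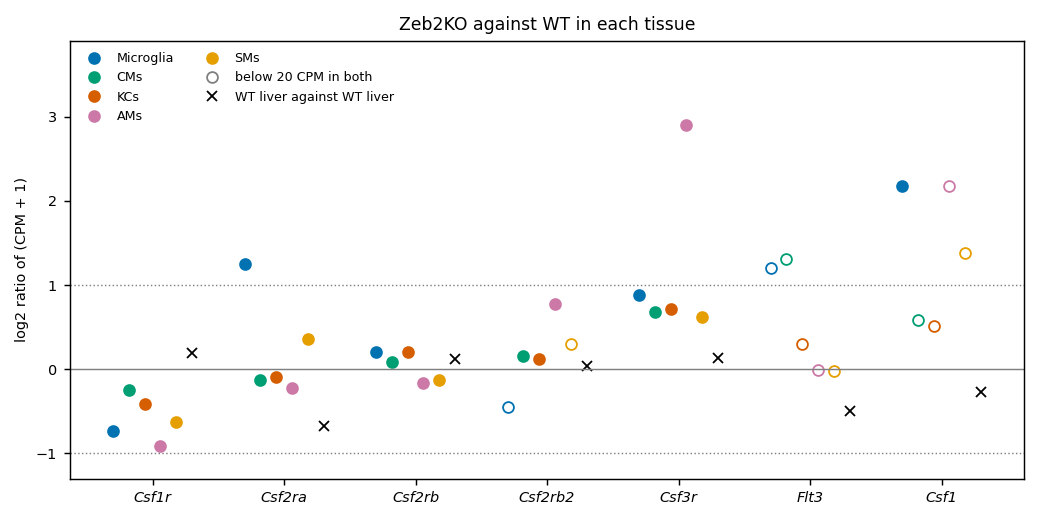
Log2 ratio of (CPM + 1), Zeb2KO against WT, of each gene in each of the 5 tissues (colored points, open where both libraries were below 20 CPM) and between the 2 WT liver libraries (crosses). Dotted lines mark 2-fold, which Csf2ra and Csf1 in microglia and Csf3r in AMs pass as filled points at 1.25, 2.18 and 2.90, while Flt3 in microglia and CMs and Csf1 in AMs and SMs pass as open points.

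Direction was shared over the tissues for 3 genes. Csf3r and Csf1 were higher in 5 of 5 tissues, as were 5.22% of 12143 genes tested, and Csf1r was lower in 5 of 5, as were 8.20%. Taken over the 5 tissue pairs, the mean log2 ratio was -0.59 ± 0.26 (SD, n = 5) for Csf1r, 1.16 ± 0.98 for Csf3r and 1.36 ± 0.81 for Csf1. An exact permutation test (2-sided, all 32 sign flips of the pairs) gave p = 0.0625 for each of these, the smallest p that 5 pairs allow, so this design cannot pass 0.05. For Flt3 the mean was 0.56 ± 0.65 with exact p = 0.25, for Csf2ra 0.23 ± 0.61 with exact p = 0.5625, for Csf2rb2 0.18 ± 0.44 with exact p = 0.5, and for Csf2rb 0.04 ± 0.18 with exact p = 0.625. The spread between tissues was thus larger than the mean for all 4.

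A model with tissue as a block, fitted to all genes by edgeR's quasi-likelihood test, gave the change common to the 5 tissues. Adjusted over all 12143 genes by Benjamini-Hochberg, no gene passed 0.05 (0 percent called), while 11.8% of genes had an unadjusted p under 0.05. Of the 7, 4 had such an edgeR p: Csf1r at -0.53 ± 0.11 (log2 difference ± SE, adjusted p = 0.239, lower in 5 of 5 tissues), Csf1 at 1.85 ± 0.51 (adjusted p = 0.294, higher in 5 of 5), Flt3 at 1.22 ± 0.42 (adjusted p = 0.362, higher in 3 of 5) and Csf3r at 1.20 ± 0.42 (adjusted p = 0.365, higher in 5 of 5). Csf2ra, Csf2rb and Csf2rb2 did not, with adjusted p from 0.629 to 0.657. DESeq2 in the same design called 2.96% of genes, among them Csf1r (adjusted p = 0.000817) and Csf1 (adjusted p = 0.00774), with Csf3r at 0.0577. For Csf3r the lung set much of the size and of the spread: without the lung pair the edgeR difference was 0.74 ± 0.09 with adjusted p = 0.159. Over the 12 alternatives the adjusted p ran from 0.000817 to 0.522 for Csf1r, from 0.00774 to 0.576 for Csf1, from 0.0577 to 0.590 for Csf3r and from 0.339 to 0.562 for Flt3.

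Zeb2KO libraries held clusters of cells that WT libraries barely had, and summed over these clusters Csf3r was higher than in the other Zeb2KO clusters of each tissue at the resolution used. In colon this includes a cluster that was kept among the macs only because Zeb2KO cells dominated it. The colon value is therefore not independent of that choice of cells. Clusters were formed without the 7 genes. A cluster was called apart when its share of a tissue's Zeb2KO cells was 9 or more times its share of the Zeb2fl/fl WT cells. Both shares are over all cells past the cell filter, other cell types included. Apart clusters took 97.0% of Zeb2KO microglia, 23.4% of CMs, 77.1% of KCs, 90.1% of AMs and 77.1% of SMs, and at most 1.495% of any WT library. They had more Zeb2 UMIs than the other Zeb2KO clusters in all tissues. Examples are 914 against 354 CPM in KCs and 979 against 509.8 in SMs. In KCs they also had more Siglecf (199 against 27.4 CPM) and Ms4a1 (125 against 23.4). The study described KCs without Siglecf but with Cx3cr1 and Ccr2 as putative monocyte-derived cells that kept a copy of Zeb2. The apart KCs include a cluster led by Cx3cr1, Ccr2 and Cd207, so apart does not mean that Zeb2 was deleted. Whether other apart clusters hold cells that kept a copy was not tested.

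Csf3r stood at 365 CPM in apart and 265 in other Zeb2KO microglia, 76.5 and 24.9 in CMs, 57.0 and 28.4 in KCs, 102 and 39.2 in AMs, and 48.3 and 27.6 in SMs. The other Zeb2KO clusters in CMs, KCs and SMs were near the WT levels of 22.7, 30.1 and 28.5, while those of microglia and AMs were above WT. The other Zeb2KO microglia were few and mostly from 1 cluster led by Lgals3, Gas2l3 and Spp1, with 2.59% of that library's cells. Among microglial clusters of at least 50 cells it had the lowest Csf3r in both genotypes, 178 CPM in WT and 275 in Zeb2KO. The exact Poisson 95% intervals of the 2 cell classes did not overlap in any of the 5 tissues. With coarser clusters (Leiden resolution 0.4) this held in 4 of 5, and in CMs apart cells, then 124, had 25.7 CPM and the others 37.2. Of 3773 genes at the floor in all 5 tissues, 0.928% were higher in the apart cells in this way in all of them, and of the 4 such genes among the 7 only Csf3r was. These counts include the colon cluster described next. In colon, the larger apart cluster had 774 Zeb2KO cells, was led by Mmp8, Ms4a1 and Ltb, and had Csf3r at 84.8 CPM, Csf2rb at 213, Flt3 at 12.5 and Csf1r at 429. In this cluster the mean log2 fold over the other colon clusters was 2.28 for markers of mature neutrophils and -0.85 for mac markers, and the marker rule as first written would have left it out. It stayed among the macs only because it was apart. The difference in Csf3r between apart and other CMs was not computed without it. Without that cluster the log2 ratio of Csf1r in CMs was -0.09, against -0.25 with it.

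Csf1r differed from this pattern in colon. Apart CMs had 503 CPM and the other Zeb2KO CMs 909.8, whereas in microglia, KCs and SMs the apart cells were higher (1946 against 1547, 1335 against 1043, and 1176 against 968), and in AMs the classes overlapped, at 37.0 and 32.1. All of these values were under the WT level of their tissue. The apart CMs include the cluster led by Mmp8, Ms4a1 and Ltb, at 429 CPM, and their difference was not computed without it. Single clusters of at least 50 cells varied. In KCs, clusters that were not apart had both the lowest and the highest Zeb2KO level, 558 and 1730 CPM. The same held in SMs, at 729 and 1477 CPM. In microglia the lowest was the shared cluster led by Lgals3, Gas2l3 and Spp1, at 2348 CPM in WT and 1348.5 in Zeb2KO. Csf2ra was nearly the same in apart and in the few other Zeb2KO microglia, at 219 and 227 CPM, both above the WT level of 91.5. In the remaining tissues it was 147 and 132 in CMs, 139 and 109 in KCs, 95.4 and 79.6 in AMs and 103 and 67.0 in SMs.

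**Figure D4:**
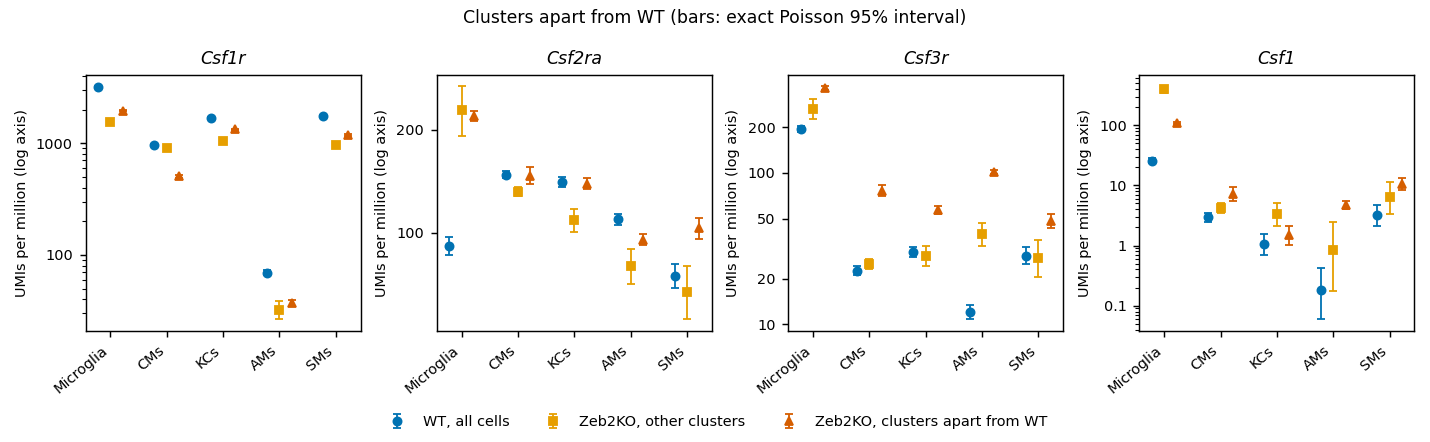
Levels (CPM, log axes) of Csf1r, Csf2ra, Csf3r and Csf1 in WT macs (circles), in Zeb2KO clusters apart from WT (triangles) and in the other Zeb2KO clusters (squares), by tissue, with exact Poisson 95% intervals. At the resolution used, the triangles of Csf3r lie above the squares in all 5 tissues, for example 102 against 39.2 CPM in AMs. The CM triangles include the cluster led by Mmp8, Ms4a1 and Ltb.

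Single clusters spread the levels further. Zeb2KO AMs fell mainly into 3 apart clusters, of which the one led by Scd1, Mustn1 and Lcn2 (1948 cells) had Csf3r at 139 CPM, the one led by Krt6b, Inhba, Stfa1 and Cd177 (1794 cells) at 112, and the one led by Spag11b, Scd2 and Fabp1 (1680 cells) at 27.2. A small apart AM cluster of 212 cells, led by C1qa, C1qb, C1qc and antigen-presentation genes, had Csf1 at 43.8 CPM and Csf1r at 131. It held 76 of the 161 Csf1 UMIs of that library. Among KCs, Csf3r was 74.9 CPM in the Siglecf-led cluster of 1898 cells, and 20.9 in the apart cluster led by Cx3cr1, Ccr2 and Cd207. In SMs it was 61.9 in a cluster of 707 cells led by Skint3, Dpep2, Mcoln3 and Itgam. Among the mac clusters of at least 50 cells in that library, this one also had the highest Csf1, 20.2 CPM.

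In microglia, Csf3r varied less over the clusters than Csf1 did. Csf3r ran from 275 to 399 CPM over the 5 Zeb2KO clusters of at least 50 cells. Csf1 stood at 241 CPM in a Zeb2KO cluster led by Pim1, Il1b, Maff and Tnf, at 116 in one led by interferon-response genes such as Ifit1 and Ifit3, at 108 in one led by Pmaip1 and Osgin1, and at 16.3 in one led by Siglecg, Mrap2 and Tnfsf8. A cluster present in both genotypes and led by Lgals3, Gas2l3 and Spp1 had the most, 224 CPM in WT and 440 in Zeb2KO. Without it the microglial difference in Csf1 was 20.8 against 109.6 CPM, 5.27-fold. The WT microglia of the other clusters had 9.36 and 30.02 CPM.

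**Figure D5:**
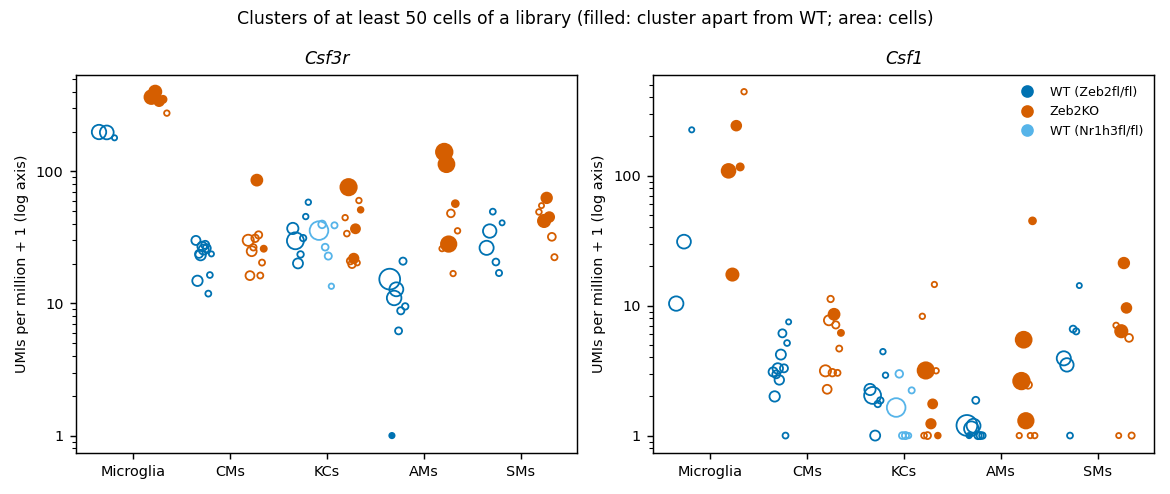
Level of Csf3r and of Csf1 (CPM + 1, log axes) in every cluster with at least 50 cells of a library, by tissue and genotype, with larger points for more cells and filled points for clusters apart from WT. In AMs the largest Zeb2KO clusters differ widely for Csf3r (139, 112 and 27.2 CPM), and in microglia Csf1 spans 9.36 to 224 CPM over the WT and 16.3 to 440 CPM over the Zeb2KO clusters.

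The rest of the pathway was read from a list of 44 genes: other ligands, receptor partners, kinases and adaptors, transcription factors, feedback inhibitors, regulators tied to GM-CSF in AMs, and growth and survival genes. Ligands were scarce in macs. Csf2, Csf3, Il34, Il3 and Il5 stood between 0 and 2.14 CPM in every library, and Flt3l, the ligand of FLT3, between 1.79 and 7.36.

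Few other members of the list passed the same 2-fold rule. Bhlhe40, a transcription factor active downstream of GM-CSF in AMs, went from 1.46 to 25.6 CPM in microglia (log2 ratio 3.44), from 30.4 to 74.5 in CMs (1.26) and from 15.4 to 38.7 in KCs (1.27, and 1.93 against 9.41 CPM in Nr1h3fl/fl). Without the colon cluster led by Mmp8, Ms4a1 and Ltb the CM call ended and its direction turned, at 29.2 and 25.7 CPM (-0.18). Ccnd1, a G1 cyclin and growth target, stood at 61.6 and 211 CPM in WT and Zeb2KO microglia, and Jak2, the kinase bound to the common beta chain, at 14.2 and 34.6 in KCs, a call lost against Nr1h3fl/fl (20.7 CPM, log2 ratio 0.71). Cebpa, a factor of myeloid development, was lower in microglia (666 against 318 CPM) and AMs (169.9 against 75.8), with log2 ratios of -1.06 and -1.15 that went to -0.97 and -0.89 on TMM-scaled totals, short of 2-fold. Cebpb was lower in AMs (1288 against 318 CPM) on either scale. Of the genes at the floor, 2 of 25 were higher and 1 lower in microglia, 1 of 27 higher in CMs, 2 of 24 higher in KCs, 2 of 28 lower in AMs, and none of 29 in SMs. The KC count is against Zeb2fl/fl. Against Nr1h3fl/fl Jak2 was not called, and Cebpb (53.4 CPM in Zeb2KO, 585 in Nr1h3fl/fl) and Maf (433 and 916) were more than 2-fold lower. Over all genes at the floor the rule called 4.27% higher and 4.07% lower in microglia, 1.09% and 0.486% in CMs, 3.38% and 1.15% in KCs, 4.35% and 7.33% in AMs, and 2.28% and 0.858% in SMs. The median log2 ratio of those at the floor was -0.51 for AMs, -0.23 for SMs, -0.01 for KCs, 0.01 for microglia and 0.13 for CMs, against -0.31, -0.02, 0.02, -0.09 and 0.05 over all genes at the floor. Between the WT liver libraries Cebpb alone passed, at 90.4 CPM in Zeb2fl/fl and 585 in Nr1h3fl/fl.

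Over the 5 tissues, 7 of 38 list genes tested had an unadjusted edgeR p under 0.05, beside 11.8% of all 12143 genes, and 0 an adjusted one. Jak2 had the smallest p, at 1.02 ± 0.10 with an edgeR adjusted p = 0.0993, followed by Cebpa at -0.74 ± 0.11 (adjusted p = 0.191). Bcl2l1, a survival gene, stood at 0.65, Cish, a feedback inhibitor of STAT5 signaling, at 0.86, and Irf8 at -0.41 on the same scale. Cish was under the floor outside AMs, at 3.45 CPM or less, and stood at 28.9 CPM in WT and 43.4 in Zeb2KO AMs.

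The genes whose levels went most alike with each of the 6 genes at the floor, over the 11 libraries, are given as a description. They are chosen by Pearson's r of log2(CPM + 1) among 8035 genes of at least 20 CPM in 1 library, and the libraries share tissues and are not independent. For Csf1r they were Tmem106c (r = 0.99), Ptgs1 (0.99) and Arap3 (0.98), and for Csf3r Trim27 (0.95), Pacsin1 (0.94) and Yes1 (0.94). For Csf1 they were Kcnip3 (0.95), Spata13 (0.94) and Med12l (0.93), and for Csf2ra Crlf2 (0.85), Hpse (0.84) and Sub1 (0.79). Csf2rb went with Anln (0.98), Diaph1 (0.97) and Glipr2 (0.97), and Csf2rb2 with D8Ertd738e (0.99), Stra13 (0.98) and Dctn3 (0.98). Among the 7 themselves, Csf3r and Csf1 had r = 0.90, Csf2rb and Csf2rb2 had 0.82, and Csf1r and Csf2rb had -0.90.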

How the data were processed

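Per the labels and the study's methods, the authors sorted macs, made 10x Genomics 3′ libraries, and aligned and counted reads with Cell Ranger on mm10. The deposited values are raw UMI counts per gene and barcode. The members and lists were chosen with earlier results of these data known.

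Barcodes over 3 median absolute deviations from their library's median in UMIs, detected genes or, upward, mitochondrial share were removed (4.66% to 9.22% per library). Cells of each tissue were clustered with scanpy 1.11.5 (Leiden, resolution 0.8, 2000 variable genes without the members and lists), and clusters of other cell types were left out by markers (0 to 22.5% of the filtered cells). The marker rule as first written would also have left out an apart colon cluster led by Mmp8, Ms4a1 and Ltb as mature neutrophils. It was kept with the other apart clusters, with the literal rule as an alternative chosen after seeing the data, as were leaving out clusters led by genes of other cells and the alternatives for named pathway genes. Scrublet called at most 0.0655% of cells, and whether it missed doublets was not tested. Doublets were not removed, and leaving out the top 5% of its scores was an alternative. UMIs were summed per library and divided by their total (8153348 to 43254708). Levels have exact Poisson and shares exact binomial 95% intervals, which cover counting error only. Ratios are log2 of (CPM + 1). Shares were taken after thinning to 1500 UMIs, leaving out 834 and 540 shallower cells of WT and Zeb2KO SMs and 28 of WT AMs. edgeR 4.0.16 (TMM, filterByExpr, quasi-likelihood F test) and DESeq2 1.42.0 used tissue as a block, after a test on simulated counts, with p-values that measure the spread between tissues. Named genes were the members, the 3 genes most like each member at 20 CPM, and up to 3 list genes per tissue past 2-fold; Bcl2l1, Cish, Irf8, and Jak2 and Cebpa across tissues, were named after their values were seen, as were genes that lead clusters and markers that lead a list. Motifs were counted in 250 bases before RefSeq starts (GRCm38.p6), and positions are from GENCODE M21 on GRCm38. The Nr1h3 knockout was not analysed here.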

Additional observations from a re-analysis of the deposited data

How the results depend on the processing

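The count of genes past an adjusted p of 0.05 over the tissues depended on the tool: edgeR gave 0 (1437 at an unadjusted p under 0.05), DESeq2 359, edgeR on total UMIs without TMM factors 2, edgeR with no filter on low counts 3, and edgeR without each tissue pair in turn 0 to 1. None of these edgeR fits called a member. With the marker rule as first fixed, 2 members instead of 4 had an edgeR p under 0.05 (Csf3r went to 0.0525 and Flt3 to 0.0822). For Flt3 the unadjusted edgeR p was also above 0.05 without the colon pair (0.122) and without the brain pair (0.0866). Csf2rb in WT AMs was 3.17-fold over the next tissue alone and 2.70-fold summed with Csf2rb2. Of 323 ratios under alternatives, 295 moved by no more than their counting spread, and no called ratio changed sign. The other 28 were counted as moving by more. Among these, Csf1 in microglia without the shared cluster in which it is highest (shift 0.168) was counted so without that comparison. Signs changed for 11 ratios that were not called: Csf2rb (-0.32) and Csf2rb2 (-0.01) in CMs under the marker rule as first fixed, Csf2ra in KCs against Nr1h3fl/fl (0.58), Csf2ra (0.05) and Csf2rb (0.10) in AMs on TMM-scaled totals, Csf2rb in SMs over all barcodes (0.02), and Flt3 in SMs under 4 alternatives (0.06 to 0.53) and in AMs under 1 (7.48e-05). The 3 called pairs remained under every floor and scaling tried, a floor of 5 CPM added Csf1 in SMs, and TMM-scaled totals added Csf2rb2 in AMs. The labels number no replicates, and the fits and the exact test pair the libraries by tissue. Ratios of Flt3, and of Csf1 outside microglia, rest on few UMIs.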
